A study of Cricetulus griseus with 6 samples.

Results

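The genes examined here encode the enzymes of glycolysis, the carriers of glucose and lactate, the hypoxia-inducible factor HIF-1α with the hydroxylases that control it, and a set of its known target genes. They were chosen by name, from a list of 38 symbols, and 37 of these were found among the 27873 rows of the expression files, each on a single row. *Eno1* was not matched. The samples were CHO-T cells, Chinese hamster ovary cells that were infected with a retrovirus carrying the cDNA of mouse T-cadherin and selected with puromycin. The cells were transfected with negative control siRNA (n = 3 libraries) or with *Xbp1* siRNA (n = 3 libraries), grown as a monolayer in air with added CO2, and harvested the day after a change of medium. *Xbp1* encodes a transcription factor of the unfolded protein response, and the study silenced it to look for pathways that limit the release of extracellular vesicles when the stress sensor IRE1α is active. Expression is given in FPKM, which corrects the fragments of a gene for exon length and sequencing depth.

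Glycolysis splits glucose into pyruvate, and lactate dehydrogenase turns pyruvate into lactate, which leaves the cell through monocarboxylate carriers. HIF-1α is made constantly and is destroyed in the presence of oxygen, after prolyl hydroxylases have marked it for the VHL ubiquitin ligase; when oxygen is short it accumulates, pairs with ARNT and raises the transcription of most glycolytic genes, of *Vegfa* and of other targets. The amount of *Hif1a* mRNA therefore says little about HIF-1α activity, and its targets are the usual readout. In breast cancer cells, the spliced form of XBP1 has been reported to act with HIF-1α at shared target genes.

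Silencing of *Xbp1* moved these genes by modest amounts and in both directions. Expression was compared with limma on log2(FPKM + 0.1), over the 14361 rows whose mean FPKM reached 0.1, and a gene passed the test when its p, adjusted by the Benjamini-Hochberg method over all these rows, was under 0.05. Of the 34 members tested, 7 rose, 8 fell and 19 did not pass. None of the 34 passed the stricter limit, which also asks for a log2 fold change beyond 1 in either direction. Among those that passed, the largest decreases were in *Ddit4*, *Pfkfb3* and *Vegfa*, and the largest increases were in *P4ha2*, *Kdm3a* and *Tpi1*. Among the most abundant enzymes, *Pkm*, *Aldoa* and *Gapdh* fell while *Ldha* rose.

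These counts were close to those of all genes. Of all rows tested, 20.2% rose and 20.2% fell, so that 40.4% passed the test, against 44.1% of the members. The stricter limit was passed by 5.19% of all rows, 2.69% higher and 2.5% lower. Of the 23 members with a mean of at least 10 FPKM, 6 rose and 7 fell (56.5%), beside 54.3% of all rows at that level, 24.1% higher and 30.2% lower. With no adjustment, 9 members were higher and 8 lower at p under 0.05 (limma). The share of all rows at that limit was not counted, so these numbers have no background beside them. Values of the conditions did not overlap for 20 members (58.8%), *Slc16a3* among them, against 51.8% of all rows tested. The median log2 fold change was 0.10 over the members and 0.01 over all rows, and it was 0.09 without *Slc16a3*, whose control libraries hold at most 2 reads, as estimated from steps in the low FPKM values. *Slc2a3* was too low to be tested, and *Ldhb* and *Egln3* were listed at 0 in every library.

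*Xbp1* itself, the check of the labels, had between 26.0 and 28.4 FPKM with control siRNA and between 1.39 and 2.18 FPKM with *Xbp1* siRNA, which is −3.78 on the log2 scale (adjusted p = 5.61e-06, limma). The libraries differed little in depth: steps in the low FPKM values put them at 94.0% to 116% of control replicate 1. The FPKM sum was lower after silencing, with 593487 to 600986 against 646651 to 666267. The drop came with lower values of abundant genes: of the 262 rows with a mean of at least 300 FPKM, 55% fell and 12.6% rose, with a median log2 fold change of −0.14. Of 6 mesenchymal markers, *Vim* had up to 389 FPKM and *Col1a1* and *Col1a2* were listed at 0, and their summed level was 888 to 921 FPKM in the controls and 795 to 819 FPKM after silencing. The summed level of 3 epithelial markers was 1.83 to 2.16 FPKM in the controls and 4.59 to 5.79 FPKM after silencing, with *Krt18* at 0. Neither sum overlapped between the conditions, and their part in the results was not tested. The sums of 3 granulosa markers (4.39 to 6.35 and 5.12 to 7.25 FPKM, with *Fshr* at 0) and of 3 oocyte markers (0.379 to 0.713 and 0.326 to 0.726 FPKM, with *Zp3* at 0) overlapped. Of 4 leukocyte markers, *Ptprc*, *Cd3e* and *Adgre1* were listed at 0, and the summed level was at most 0.0945 FPKM in the controls and 0 after silencing. The sum of 4 endothelial markers was 0.104 to 0.412 FPKM in the controls and 0.0262 to 0.123 FPKM after silencing, with overlap and with *Cdh5* at 0. In these bulk samples, a lower level in each cell and a smaller share of cells that express a gene cannot be told apart. The labels do not say that libraries came from separate cultures. The methods of the study describe its results in general as coming from independent experiments, without naming these libraries, so p-values measure the spread between them, which may be technical.

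**Figure D1:**
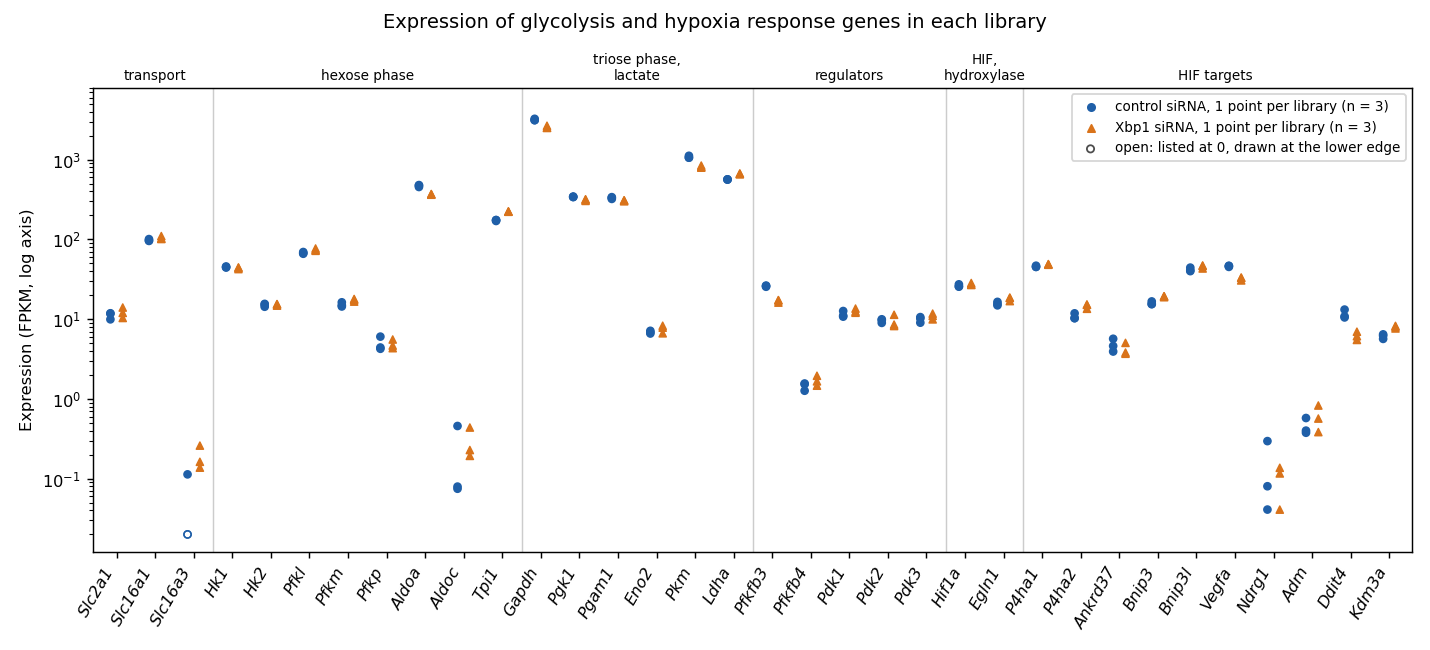
Expression of the 34 members tested, in FPKM on a log axis, with 1 point per library (circles, control siRNA; triangles, *Xbp1* siRNA; open symbols, listed at 0). Levels range from 3256 FPKM for *Gapdh* in a control library to under 1 FPKM for *Slc16a3*, *Aldoc*, *Ndrg1* and *Adm*, and the shift between conditions is small beside the range between genes.

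Entry of glucose and exit of lactate were examined first. *Slc2a1*, the widely used glucose carrier GLUT1, had 11.7, 11.9 and 9.96 FPKM in the control libraries and 14.0, 10.4 and 12.0 FPKM after *Xbp1* silencing. The libraries overlapped, and the log2 fold change of 0.11 had a 95% interval from −0.18 to 0.40 (adjusted p = 0.520, limma). It was 0.00042 without *Xbp1* siRNA replicate 1 and 0.22 without *Xbp1* siRNA replicate 2. *Slc2a3*, which encodes GLUT3, had 0.053 FPKM in *Xbp1* siRNA replicate 3 and was listed at 0 in the other libraries. *Slc16a1* encodes MCT1, a carrier of lactate and pyruvate in both directions. It was the main carrier of its pair, with 98.0 ± 2.67 FPKM (SD, n = 3) against 105 ± 4.79 FPKM (SD, n = 3), and its log2 fold change was 0.09 (adjusted p = 0.123, limma). *Slc16a3*, which encodes the lactate exporter MCT4 and is a HIF target, had an estimated 0, 2 and 0 reads with control siRNA and 5, 3 and 3 with *Xbp1* siRNA. Its mean was 0.038 FPKM in the controls and 0.187 FPKM after silencing, so it reached the filter only through the silenced libraries. It did not pass, and its test is not read further.

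In the hexose phase, the enzymes that use ATP changed little. *Hk1* and *Hk2* encode hexokinases, which trap glucose as glucose 6-phosphate. *Hk1* went from 45.1 ± 0.705 in the controls to 43.7 ± 1.06 FPKM after silencing (SD, n = 3 each; log2 fold change −0.04, 95% interval −0.13 to 0.05). *Hk2*, the hexokinase that HIF induces, had 15.0 ± 0.635 and 15.2 ± 0.356 FPKM (SD, n = 3 each; log2 fold change 0.02, 95% interval −0.12 to 0.15). *Hk2* made up 25.0% of the summed FPKM of both genes in the controls and 25.8% after silencing, and the libraries overlapped.

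Phosphofructokinase commits sugar to glycolysis and is encoded by *Pfkl*, *Pfkm* and *Pfkp*. *Pfkl* had 69.6, 66.2 and 67.5 FPKM in the controls and 77.0, 74.1 and 72.0 FPKM after silencing, a log2 fold change of 0.13 (limma, adjusted p = 0.0308). All of its silenced libraries were above all controls, but the call was lost without control replicate 2 or 3 or without *Xbp1* siRNA replicate 1 or 2, with adjusted p between 0.0712 and 0.0996 (limma). *Pfkm* was also higher in each silenced library, with a log2 fold change of 0.19 that did not pass (adjusted p = 0.0543, limma), although it did without control replicate 2, with the filter at 1 FPKM, with quantile normalization and with division by the library sum (adjusted p of 0.0338, 0.0427, 0.0495 and 0.00611, limma). *Pfkp* had a log2 fold change of −0.0049 with overlapping libraries. The shares of the 3 genes in their sum were 77.1%, 17.3% and 5.58% in the controls and 77.0%, 18.0% and 5.04% after silencing, with overlap for each gene.

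The next enzymes moved in opposite directions. *Aldoa*, the aldolase that cleaves the hexose into trioses, had 474, 481 and 455 FPKM with control siRNA and 371, 364 and 366 FPKM with *Xbp1* siRNA. This is 78.2% of the control, a log2 fold change of −0.36 (standard error 0.031, adjusted p = 1.14e-04, limma). *Tpi1*, the triose phosphate isomerase that acts on the products of aldolase, had 175, 171 and 175 FPKM with control siRNA and 222, 224 and 224 FPKM with *Xbp1* siRNA. It rose to 129% of the control, a log2 fold change of 0.37 (standard error 0.028, adjusted p = 5.71e-05, limma). The groups were far apart for both genes. *Aldoc*, the other aldolase listed, had 1 to 6 reads per library in both conditions.

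In the triose phase, 4 of the 6 members tested fell and 1 rose, beside 30.2% lower and 24.1% higher among all rows with at least 10 FPKM and 55% and 12.6% among those with at least 300 FPKM. *Gapdh* encodes glyceraldehyde 3-phosphate dehydrogenase and is widely used as a reference gene. It was the most abundant member, at rank 18 of all rows by its control mean, with 3256, 3137 and 3129 FPKM in the controls and 2665, 2501 and 2533 FPKM after silencing. This is 80.9% of the control, a log2 fold change of −0.31 (limma, adjusted p = 4.39e-04). *Pkm*, the pyruvate kinase gene at the end of the pathway, had 1119, 1060 and 1063 FPKM in the controls and 844, 795 and 810 FPKM after silencing. It fell to 75.5% of the control, a log2 fold change of −0.40 (standard error 0.036, adjusted p = 1.27e-04, limma). Reads of its M1 and M2 isoforms are not separated in these values.

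*Pgk1*, phosphoglycerate kinase, and *Pgam1*, phosphoglycerate mutase, fell by less. *Pgk1* had 91.4% of its control level, or −0.13 on the log2 scale (adjusted p = 0.0101, limma), and *Pgam1* had 92.4% and −0.11 (adjusted p = 0.0221, limma). The call of *Pgam1* was lost without control replicate 1 or 2 or without *Xbp1* siRNA replicate 2 or 3, with adjusted p between 0.0503 and 0.0786 (limma). *Eno2*, the neuronal form of enolase, had 6.87 ± 0.268 FPKM (SD, n = 3) in the controls and 7.59 ± 0.839 FPKM (SD, n = 3) after silencing, with overlap.

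*Ldha*, the lactate dehydrogenase gene that HIF induces, went against most of its abundant neighbours. It had 564, 567 and 563 FPKM in the controls and 657, 672 and 663 FPKM after silencing. This is 117% of the control, a log2 fold change of 0.23 (standard error 0.026, adjusted p = 3.41e-04, limma), with a wide gap between the groups. *Ldhb*, the other main subunit gene, was listed at 0 in all 6 libraries.

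**Figure D2:**
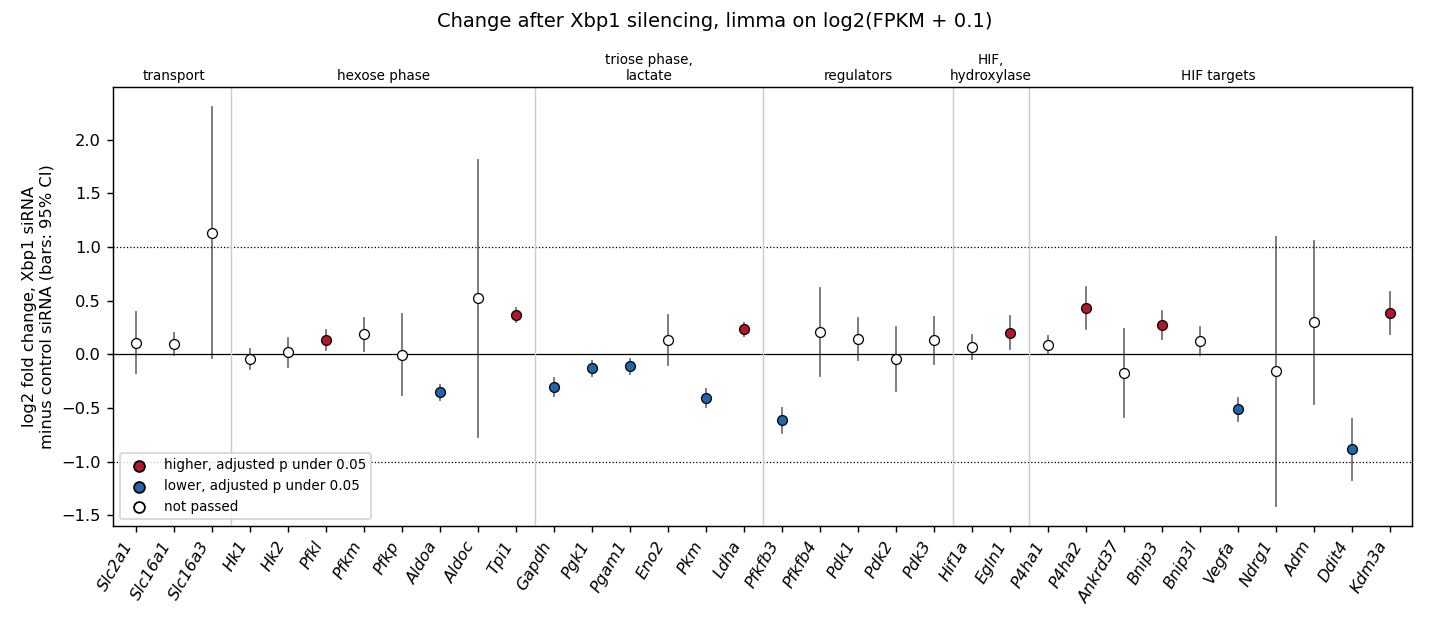
Fitted log2 fold change of each member tested (*Xbp1* siRNA minus control siRNA), ordered by role, with 95% confidence intervals as bars. Filled points passed the test (red, 7 higher; blue, 8 lower), open points did not, and no filled point lies beyond the dotted lines at −1 and 1.

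The decreases of the abundant enzymes depend on how libraries are scaled. Of the 6 members with a mean of at least 300 FPKM, 5 fell and 1 rose, where 55% of all rows at that level fell and 12.6% rose. After quantile normalization, which gives every library the same set of values, *Gapdh* stood at −0.011 on the log2 scale (adjusted p = 0.744, limma), while *Pgk1* and *Pgam1* changed sign, to 0.0076 and 0.035. Under the same setting *Pkm* had −0.11 (adjusted p = 0.0317, limma), *Aldoa* −0.20 (adjusted p = 5.67e-04, limma) and *Ldha* 0.54 (adjusted p = 2.34e-05, limma), so these kept their direction but not their size. Division by the FPKM sum of the library, an alternative chosen after seeing the data, moved the median of all genes to 0.14. It put *Gapdh* at −0.17 (adjusted p = 0.00229, limma), *Pgk1* at 0.0054 (adjusted p = 0.898, limma) and *Pgam1* at 0.021 (adjusted p = 0.575, limma). Relative to that shift these stood at −0.31, −0.13 and −0.12, which by construction is close to the values as deposited. Under quantile normalization 11 members rose and 5 fell, and after division by the library sum 13 rose and 6 fell, beside 7 and 8 with the values as deposited. Members that passed only with another scaling were *Slc16a1* (0.16 and 0.23 on the log2 scale under quantile normalization and division by the sum), *P4ha1* (0.14 and 0.22), *Bnip3l* (0.18 and 0.26) and, with division by the sum alone, *Pdk1* (0.28) and *Hif1a* (0.20). For all rows, quantile normalization gave 3115 higher and 2653 lower and division by the sum gave 4551 and 1865, beside 2898 and 2904. The share of higher calls was 68.8% for the members and 54.0% for all rows under quantile normalization, 68.4% and 70.9% after division by the sum, and 46.7% and 49.9% with the values as deposited.

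**Figure D3:**
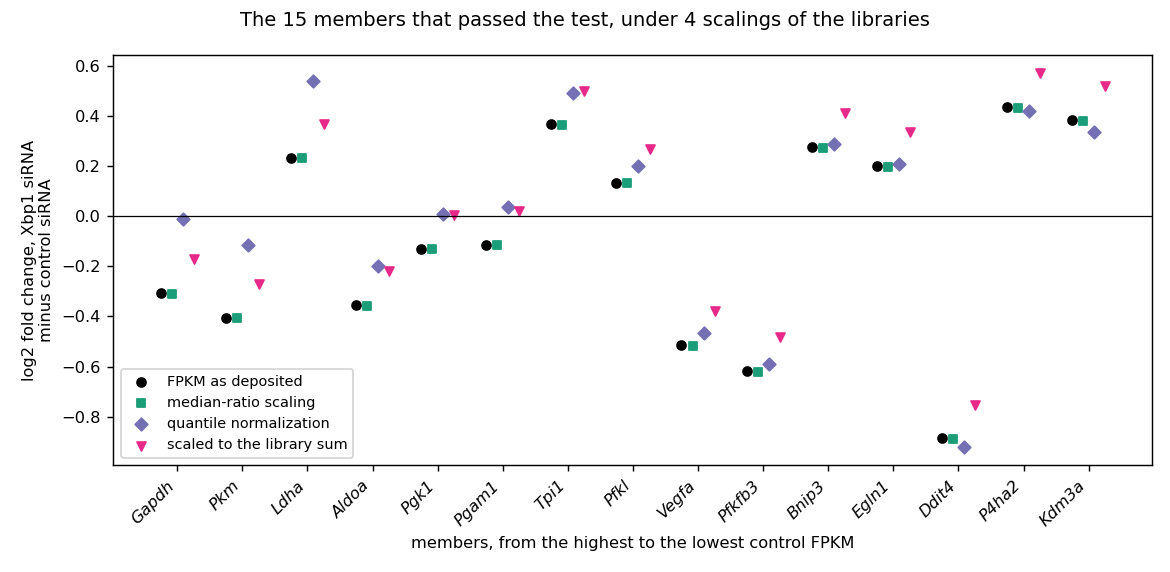
Log2 fold change of the 15 members that passed the test, ordered from the highest to the lowest control FPKM, under the deposited FPKM values, median-ratio scaling, quantile normalization and division by the library sum. The points of *Gapdh*, *Pgk1* and *Pgam1* reach or cross 0 under quantile normalization, while those of *Vegfa*, *Pfkfb3*, *Ddit4*, *P4ha2* and *Kdm3a* stay on their side.

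A ratio of 2 genes within a library is free of any single factor applied to the whole library. It is not free of quantile normalization, under which *Pgk1* and *Gapdh* stood at 0.0076 and −0.011 on the log2 scale. The pairs given here were chosen after their values were seen, and they are described without a test. The FPKM of *Tpi1* relative to *Aldoa* was 0.369, 0.355 and 0.385 in the controls and 0.599, 0.616 and 0.611 after silencing. *Ldha* relative to *Pkm* went from 0.523 ± 0.0165 (SD, n = 3) to 0.814 ± 0.0336 (SD, n = 3). *Pkm* relative to *Gapdh* went from 0.340 ± 0.00306 to 0.318 ± 0.00169 (SD, n = 3 each), *Pgk1* relative to *Gapdh* went from 0.108 ± 0.00155 to 0.122 ± 0.00675 (SD, n = 3 each), and *Aldoa* relative to *Gapdh* overlapped between the conditions, with 0.148 ± 0.00449 and 0.143 ± 0.00332 (SD, n = 3 each). Mammalian genomes hold many processed pseudogenes of glycolytic enzymes, and the way reads shared with such copies were counted is not given in the sources used here.

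Among the regulators of flux, 1 of 5 members passed the test, where 40.4% of all rows did. *Pfkfb3* encodes the enzyme that makes fructose 2,6-bisphosphate, a strong activator of phosphofructokinase. It had 26.0, 26.4 and 25.5 FPKM with control siRNA and 17.2, 17.4 and 16.1 FPKM with *Xbp1* siRNA. It fell to 65.1% of the control, a log2 fold change of −0.62 (standard error 0.050, adjusted p = 8.03e-05, limma), and lay between −0.64 and −0.48 in every alternative run. An exact two-sided permutation test of its libraries gave p = 0.10, the smallest that 3 against 3 allow. Every gene without overlap between the conditions gives this value, as do 51.8% of all rows tested, so it adds nothing particular to *Pfkfb3*. *Pfkfb4*, a paralog that hypoxia also induces, was much lower and overlapped, with 1.45 ± 0.161 and 1.69 ± 0.244 FPKM (SD, n = 3 each).

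Pyruvate dehydrogenase kinases switch off the pyruvate dehydrogenase complex, which uses pyruvate inside the mitochondrion. *Pdk1*, the HIF target among them, had 10.8, 11.1 and 12.7 FPKM in the controls and 13.6, 12.5 and 12.0 FPKM after silencing (log2 fold change 0.14, adjusted p = 0.220, limma). *Pdk2* and *Pdk3* had log2 fold changes of −0.04 and 0.13 with overlapping libraries. The 3 kinases were expressed at like levels, with control means of 11.5, 9.56 and 9.96 FPKM.

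The factor itself did not pass the test with the values as deposited, though it did after division by the library sum (adjusted p = 0.020, limma). *Hif1a* had 25.8, 25.6 and 27.4 FPKM with control siRNA and 27.2, 28.4 and 26.9 FPKM with *Xbp1* siRNA. Its log2 fold change was 0.07, with a 95% interval from −0.05 to 0.18 (adjusted p = 0.318, limma). *Egln1*, which encodes the main prolyl hydroxylase PHD2 and is itself a HIF target, had 14.9, 16.5 and 15.5 FPKM in the controls and 18.5, 18.6 and 16.9 FPKM after silencing. Its log2 fold change was 0.20 (adjusted p = 0.0441, limma), and the silenced libraries lay above the controls by a narrow margin. The call was lost without control replicate 1 or 3, without *Xbp1* siRNA replicate 1 or 2 (adjusted p between 0.101 and 0.127, limma), with no filter on low values (adjusted p = 0.0512, limma), and with the replicate number as a block (adjusted p = 0.0509, limma). *Egln3*, which encodes the strongly hypoxia-inducible PHD3, was listed at 0.

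Of 10 HIF targets outside glycolysis, 3 rose and 2 fell, close to the 40.4% of all rows that passed. *Ddit4* encodes REDD1, an inhibitor of mTORC1 that is induced by hypoxia and also by ATF4 and glucocorticoids. It had 10.5, 13.2 and 10.9 FPKM with control siRNA and 6.12, 5.50 and 6.97 FPKM with *Xbp1* siRNA. This was the largest change among the members that passed the test, to 53.7% of the control (log2 fold change −0.89, standard error 0.12, adjusted p = 9.79e-04, limma). *Vegfa*, the growth factor of blood vessels and a classical HIF target, had 46.7, 46.4 and 45.3 FPKM in the controls and 33.2, 30.6 and 33.0 FPKM after silencing. It fell to 70.0% of the control, a log2 fold change of −0.51 (standard error 0.046, adjusted p = 1.25e-04, limma). The conditions stood well apart for both genes.

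The members that rose include a collagen prolyl hydroxylase and a histone demethylase. *P4ha2*, a catalytic subunit of collagen prolyl 4-hydroxylase in the ER, had 10.3, 10.3 and 11.8 FPKM in the controls and 15.3, 13.5 and 15.1 FPKM after silencing (log2 fold change 0.43, standard error 0.083, adjusted p = 0.00486, limma). Its paralog *P4ha1* was higher in each silenced library, with 45.8 ± 0.900 and 48.6 ± 0.462 FPKM (SD, n = 3 each), and did not pass (adjusted p = 0.0982, limma). The share of *P4ha2* in the sum of both was 18.0% to 20.7% in the controls and 21.9% to 23.9% after silencing. *Kdm3a*, a demethylase of histone H3 and a HIF target, had 6.20, 6.45 and 5.66 FPKM in the controls and 8.24, 7.65 and 8.05 FPKM after silencing (log2 fold change 0.38, standard error 0.083, adjusted p = 0.00855, limma).

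*Bnip3*, a mitophagy receptor of the outer mitochondrial membrane, had 15.4, 15.5 and 16.7 FPKM in the controls and 19.4, 19.4 and 18.9 FPKM after silencing, a log2 fold change of 0.27 (standard error 0.054, adjusted p = 0.00568, limma). Its paralog *Bnip3l* was more abundant and its libraries overlapped, with a log2 fold change of 0.13 (limma, adjusted p = 0.109). *Ankrd37*, a target that responds strongly to HIF in many cells, had 4.61, 3.93 and 5.68 FPKM in the controls and 5.04, 3.69 and 3.81 FPKM after silencing, with overlap. *Ndrg1* had 1 to 7 reads per library and *Adm*, the adrenomedullin gene, had 4 to 9 reads, and neither passed the test; changes of modest size in these were not detectable at this depth.

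**Figure D4:**
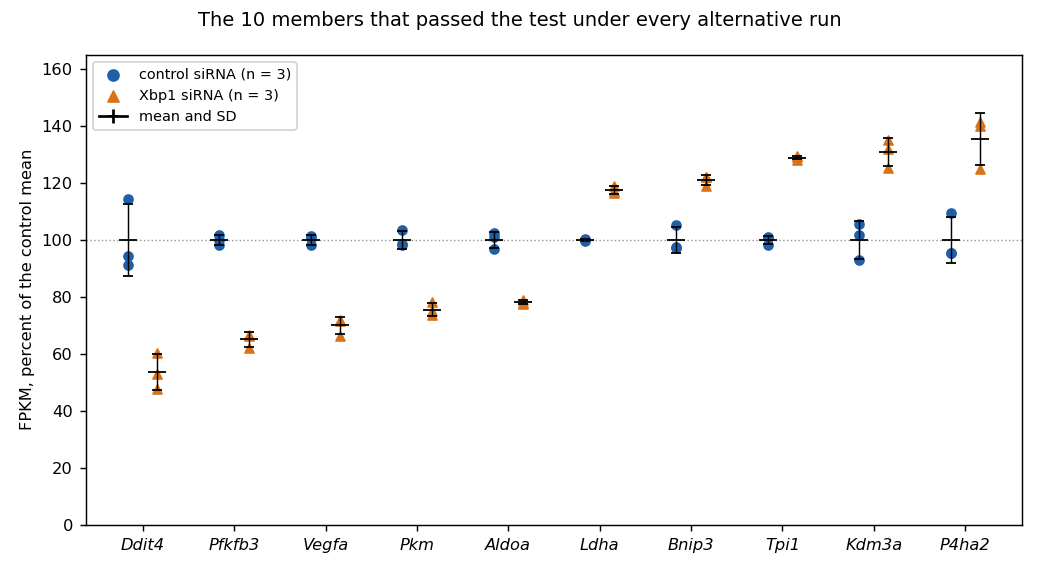
FPKM of the 10 members that passed the test under every alternative run, in percent of the control mean, with 1 point per library and the mean and SD (n = 3). *Ddit4*, *Pfkfb3* and *Vegfa* lie at 53.7% to 70.0% of the control and *P4ha2* at 135%, with no overlap between conditions for any of the 10.

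Other genes of these pathways were counted from 4 lists with 93 names, of which 83 were matched and 69 tested. Of the latter 18 rose and 17 fell, beside 20.2% of all rows in each direction. In glycolysis and glycogen metabolism, 6 of 20 rose and 1 fell. *Gbe1*, the glycogen branching enzyme, went from 0.731 ± 0.115 to 1.35 ± 0.0668 FPKM (SD, n = 3 each), a log2 fold change of 0.81 (limma, adjusted p = 0.0126) that was 0.44 with a pseudocount of 1. *Tigar*, a phosphatase that lowers fructose 2,6-bisphosphate and so acts against the product of *Pfkfb3*, had 14.3, 15.2 and 15.5 FPKM in the controls and 19.8, 22.9 and 21.1 FPKM after silencing, a log2 fold change of 0.50 (limma, adjusted p = 9.93e-04). The FPKM of *Pfkfb3* relative to *Tigar* went from between 1.65 and 1.82 to between 0.759 and 0.871.

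Of 12 genes for the entry of pyruvate into mitochondria or its use there, 1 rose and 6 fell, with a median log2 fold change of −0.26. Of all rows, 20.2% passed in each direction, and among rows with at least 10 FPKM 24.1% were higher and 30.2% lower. Within the pyruvate dehydrogenase complex, the subunits of the first enzyme moved apart. *Pdhb*, its β subunit, had 38.4, 41.7 and 39.5 FPKM with control siRNA and 26.0, 28.7 and 26.7 FPKM with *Xbp1* siRNA (log2 fold change −0.55, adjusted p = 2.07e-04, limma). *Pdha1*, the α subunit that *Pdhb* pairs with and that the kinases phosphorylate, rose from 71.0 ± 2.75 to 90.1 ± 3.80 FPKM (SD, n = 3 each; log2 fold change 0.34, adjusted p = 8.65e-04, limma). *Pdhx*, which binds the third enzyme of the complex, had −0.41 (adjusted p = 0.00110, limma), and *Dlat*, the acetyltransferase core, had −0.29 (adjusted p = 0.00151, limma). *Dld*, the third enzyme, had −0.04 and did not pass (adjusted p = 0.471, limma). *Pdk4*, a kinase that fasting induces, had 1.19 ± 0.227 and 0.603 ± 0.148 FPKM (SD, n = 3 each), a log2 fold change of −0.88 (limma, adjusted p = 0.0294). This was −0.45 with a pseudocount of 1. Its adjusted p was 0.0574 (limma) with the replicate number as a block, and 0.0774 to 0.0906 (limma) when control replicate 1, control replicate 2 or *Xbp1* siRNA replicate 2 was left out. *Pdha1*, *Dlat* and *Dld* were named after their values were seen.

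**Figure D5:**
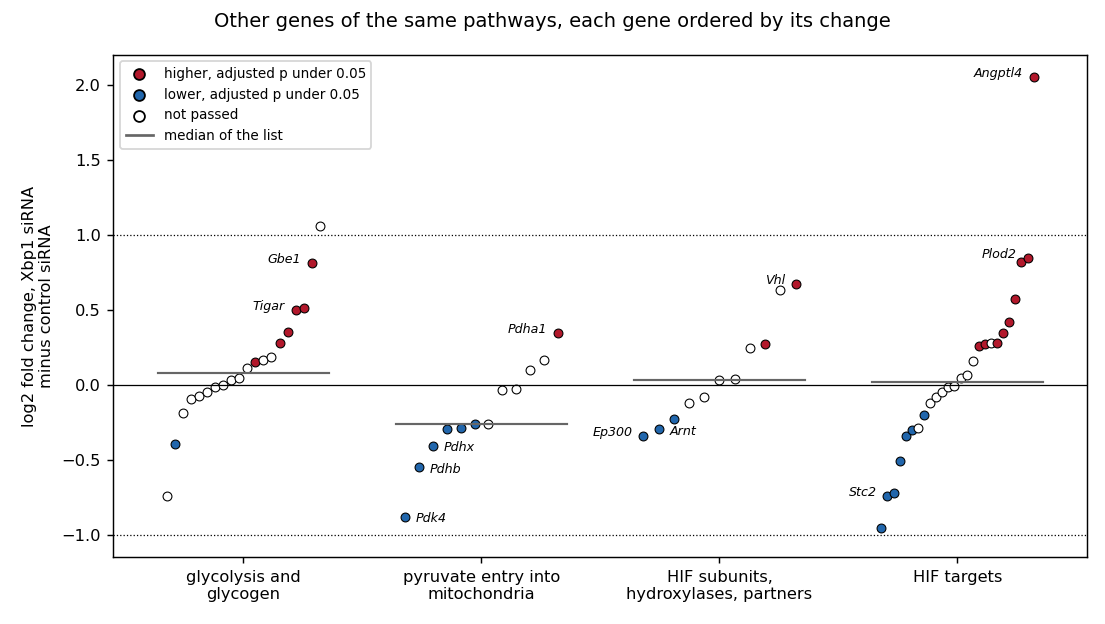
Log2 fold change of the 69 genes tested from the 4 other lists, each gene a point and ordered by its change within its list (red and blue, passed the test; open, not passed; grey line, median of the list). *Angptl4* is the only filled point past the dotted line at 1, and the list of pyruvate entry and use has the lowest median, −0.26.

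Of 11 HIF subunits, hydroxylases and partners, 2 rose and 3 fell, near the 40.4% of all rows. *Arnt*, the constant partner of HIF-1α, had 42.3, 42.6 and 43.2 FPKM in the controls and 33.2, 36.6 and 34.6 FPKM after silencing, a log2 fold change of −0.30 (limma, adjusted p = 0.00191). *Ep300*, a coactivator of HIF and of many other factors, had −0.34 (adjusted p = 0.00232, limma). *Vhl*, the substrate receptor that leads hydroxylated HIF-1α to destruction, had 17.5, 16.3 and 18.4 FPKM in the controls and 28.9, 21.6 and 34.2 FPKM after silencing, a log2 fold change of 0.67 (limma, adjusted p = 0.0102). The silenced libraries of *Vhl* spread widely but stayed above all controls.

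A further list of HIF targets also went both ways, with 9 of 26 higher and 7 lower, beside 20.2% of all rows each way. *Angptl4*, a secreted inhibitor of lipoprotein lipase, was the only gene of the 4 lists past the stricter limit, beside 2.69% of all rows in that direction. It had an estimated 5, 6 and 4 reads in the controls and 33, 21 and 40 reads after silencing, a log2 fold change of 2.05 (limma, adjusted p = 0.00102) that was 0.85 with a pseudocount of 1. Others, named after their values were seen, were *Plod2*, a collagen lysyl hydroxylase, which rose from 18.1 ± 1.17 to 32.7 ± 2.45 FPKM (SD, n = 3 each), and the secreted glycoprotein gene *Stc2*, which fell from 62.7 ± 0.951 to 37.4 ± 1.86 FPKM (SD, n = 3 each). Their adjusted p were 1.08e-04 and 2.35e-05 (limma).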

How the data were processed

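Stranded mRNA libraries were sequenced on an Illumina instrument, and the authors deposited FPKM values, 1 library per file. The submitters' processing notes name HISAT2 2.1.0 and Cuffdiff 2.2.1; the genome build and annotation are not given in the sources used here, so genes are given by symbol. FPKM are not counts, so the count model of the study was not used. Here limma 3.58.1 (R 4.3.3; lmFit, eBayes with trend) was run on log2(FPKM + 0.1), for rows with a mean FPKM of at least 0.1, with Benjamini-Hochberg adjustment over all rows. The procedure was tested on simulated data. Tables and figures were made with Python 3.11.15, pandas 2.3.3, scipy 1.17.1 and matplotlib 3.10.9. Depth is not stated: reads of low genes were estimated as the smallest whole numbers whose ratios match the FPKM values, after correction for relative depth, within 0.03 reads times the square root of their number. A whole multiple of such numbers would match too. The replicate numbers were not taken as pairs. The members and lists were chosen with earlier results of these data known. Named genes are the members, *Xbp1*, and in each other list the genes past both limits or else the 3 with the largest change that passed the test; some genes are not reported here. A description of promoter motifs was intended and was not run, since promoter sequences were not used here. The alternatives are given in the closing section.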

Additional observations from a re-analysis of the deposited data

How the results depend on the processing

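Under 15 other settings, 10 of the 15 members that passed the test kept their direction and their side of the threshold in each (*Aldoa*, *Tpi1*, *Pkm*, *Ldha*, *Pfkfb3*, *P4ha2*, *Bnip3*, *Vegfa*, *Ddit4* and *Kdm3a*). The settings were a pseudocount of 1 or 0.01, a filter at a mean of 1 FPKM or no filter, and eBayes without trend. Others were median-ratio scaling, quantile normalization, division by the library sum, the replicate number as a block, and leaving out each library in turn. Of 504 values for 34 members, 458 kept direction and side, 19 kept direction but no longer passed, 12 newly passed and 15 changed sign, of which those of *Pgk1* and *Pgam1* also no longer passed. Quantile normalization gave 11 members higher and 5 lower, beside 3115 and 2653 of all rows. Division by the library sum gave 13 higher and a median of 0.24, since it moved the median of all genes, and 24 genes of the other lists higher and 11 lower, beside 18 and 17. Leaving out 1 library each gave 5 to 7 members higher, 7 to 8 lower, a median from 0.072 to 0.12, and 12 to 15 genes of the other lists higher and 13 to 16 lower. No member passed both limits under any setting run. The values that changed sign were *Hk1* (0.0045 with quantile normalization, 0.092 with the library sum), *Pgk1* (0.0076 and 0.0054), *Pgam1* (0.035 and 0.021), *Pfkp* (0.13 with the library sum, 0.15 without control replicate 2, 0.019 and 0.071 without *Xbp1* siRNA replicate 1 or 2), *Pdk2* (0.092 with the library sum, 0.016 and 0.046 without *Xbp1* siRNA replicate 2 or 3), *Hk2* (−0.017 without control replicate 2) and *Ndrg1* (0.068 without *Xbp1* siRNA replicate 2); the cause was not tested. Leaving out 1 library each moved *Hk2* between −0.017 and 0.042, *Pfkp* between −0.11 and 0.15, *Pdk2* between −0.19 and 0.046 and *Ndrg1* between −0.47 and 0.068. Without the trend in eBayes, *Pfkl*, *Pgk1*, *Pgam1* and *Egln1* did not pass. With the replicate number as a block, 6 members were higher and 8 lower. Libraries that share a number did not deviate together from the mean of their condition (r across genes of −0.029, −0.027 and −0.012), so the numbers were not taken as pairs. Genes under 1 FPKM rest on few reads where these could be estimated, and the part of depth in their changes was not tested.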
